A study of Mus musculus with 4 samples.

Results

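Ctla2a and Ctla2b, the genes of a pair of small proteins that resemble the propeptide of cathepsin L, were much higher in LSK than in CLP, 2 progenitor sorts of mouse bone marrow, in both genotypes studied. The group described here is 10 genes of 24278 on the array: the protease genes Ctsb, Ctsc, Ctsd, Ctsl and Ctss, and the inhibitor genes Ctla2a, Ctla2b, Cst3, Cst7 and Cstb. Its members are the probes whose gene symbol is one of these names, 12 of 55681 probes, and all 12 were well above background on all 4 arrays by the scanner software's flag. Of all probes, 65.3% to 70.1% passed that flag on an array, so at most 65.3% did so on all 4. The list was drawn up with these arrays in view, and Ctla2a and Ctla2b were chosen by their levels on these arrays, much higher in LSK, so that difference is described below and carries no test. RNA came from adult bone marrow of mice carrying an SFRP5 transgene and of wild-type (WT) littermates. SFRP5 is a secreted protein that binds Wnt ligands. The LSK sort is lineage-negative, Sca-1-positive and high in c-Kit and holds blood stem cells and early progenitors; the CLP sort is lineage-negative, low in c-Kit and Sca-1 and positive for the IL-7 receptor, and is enriched in common lymphoid progenitors. Each of the 4 groups (WT LSK, SFRP5 LSK, WT CLP and SFRP5 CLP) is 1 array, so array and group cannot be told apart, and no comparison has a test, a p-value or a standard error. The sources used here do not give the promoter that drives the transgene or the number of mice behind each array.

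Cathepsins are proteases that work mostly in lysosomes. Most are cysteine proteases, made as inactive precursors whose propeptide blocks the active site until it is cut away; cathepsin D is an aspartic protease. Cystatins hold the cysteine cathepsins in check outside the cell and in the secretory pathway, stefins do so in the cytosol, and Ctla2a and Ctla2b encode stand-alone copies of a propeptide-like fold. In blood cells these enzymes digest proteins, trim the chains that load antigen onto MHC class II and activate the serine proteases of granules.

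Levels are log2 intensities relative to the array's own 75th percentile, so that 0 is the intensity that 75% of probes lie below, and probes of different genes are not set against each other. Differences of 2-fold (1 on the log2 scale) or more are counted. The only error that can be given is that between replicate spots on an array. Every member probe has 1 spot. Replicated probes of like level put the SD of a member probe's difference at 0.085 to 0.17 unless stated. Genes outside the members are given without an SD, and for dim ones it is larger. Below a level of -3, replicate spots on an array had a median SD of 0.35 to 0.45. Spot error leaves out the spread between mice, sorts and amplifications. The 3 genes that define the sorts followed the labels: from LSK to CLP in WT, Kit was lower by a log2 difference of -2.33 and Ly6a (Sca-1) by -2.20, and Il7r was higher by 3.03. Flt3, which the sort did not use and which common lymphoid progenitors are known to carry, was lower in CLP by -2.71 in WT and -2.78 in SFRP5, against what that label would lead to. The Sfrp5 probe differed between genotypes by -0.08 in LSK and 0.02 in CLP, and the sources used here do not say whether it detects the transgene's RNA. Xist was well above background on both arrays labelled SFRP5 and on neither WT array, and Ddx3y was lower on the SFRP5 arrays by -1.35 in LSK and -1.52 in CLP. The genotype comparisons below therefore also compare arrays that differ in sex-linked RNA, and the 2 cannot be told apart. In LSK, Il7r was higher on the SFRP5 array by 1.4, while Kit, Ly6a and Flt3 differed by 0.09, -0.33 and 0.15. Whether the make-up of the sorted cells differed between genotypes was not tested.

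The upstream sequences of the 2 genes are shown because the genes had nearly the same profile over the arrays. They are 250 bases before the RefSeq start on GRCm38.p6, written 5′ to 3′, and the capitals mark the longest stretch that both share, 36 bases.
Ctla2a (chr13:60936626-60936875, minus strand): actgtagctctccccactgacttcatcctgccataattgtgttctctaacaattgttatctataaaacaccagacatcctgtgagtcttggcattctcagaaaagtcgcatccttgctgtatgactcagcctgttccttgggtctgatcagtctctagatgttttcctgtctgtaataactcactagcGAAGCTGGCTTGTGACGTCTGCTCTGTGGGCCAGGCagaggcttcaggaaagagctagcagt
Ctla2b (chr13:60897448-60897697, minus strand): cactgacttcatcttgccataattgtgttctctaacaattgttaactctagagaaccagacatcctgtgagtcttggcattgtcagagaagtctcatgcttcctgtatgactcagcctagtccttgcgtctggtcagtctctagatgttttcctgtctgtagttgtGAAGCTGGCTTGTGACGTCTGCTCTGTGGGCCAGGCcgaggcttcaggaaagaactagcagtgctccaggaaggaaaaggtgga
Aligned to each other, the windows were identical at 209 of 228 positions without gaps, or 91.7%. The capital stretch starts 62 bases before the start in Ctla2a and 84 bases before it in Ctla2b, and among 32851 upstream windows of all genes it occurred in 3, which belong to these 2 genes. Ctla2a has a second RefSeq start, with the window chr13:60936567-60936816, and there the stretch lies 121 bases before it. The identity above is that of the Ctla2a window shown. The similarity is a description of close copies and says nothing of which factor acts there. Near-identical copies can also share probe signal; the probes' own sequences were not used here, and cross-hybridisation between the 2 probes was not tested.

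Ctla2a, whose product inhibits cathepsin L-like proteases and was described in activated T cells and mast cells, lies in band B2 of chromosome 13. Its level was 6.10 (WT) and 6.26 (SFRP5) in LSK and 1.62 (WT) and 1.43 (SFRP5) in CLP. Both LSK arrays were far above both CLP arrays, and the 2 genotypes lay close together within each sort. From LSK to CLP the level was lower by 22.4-fold in WT (log2 difference -4.49) and 28.4-fold in SFRP5 (-4.83). Between genotypes it differed by 0.15 in LSK and -0.19 in CLP, beside spot SDs of 0.095 and 0.085. The LSK value took the opposite sign under 2 other scalings, with a lowest value of -0.03, so no direction is given for it. In the authors' deposited table of scaled signals, Ctla2a read 122032.1 (WT) and 124013.0 (SFRP5) in LSK and 4083.7 (WT) and 3841.1 (SFRP5) in CLP.

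**Figure D1:**
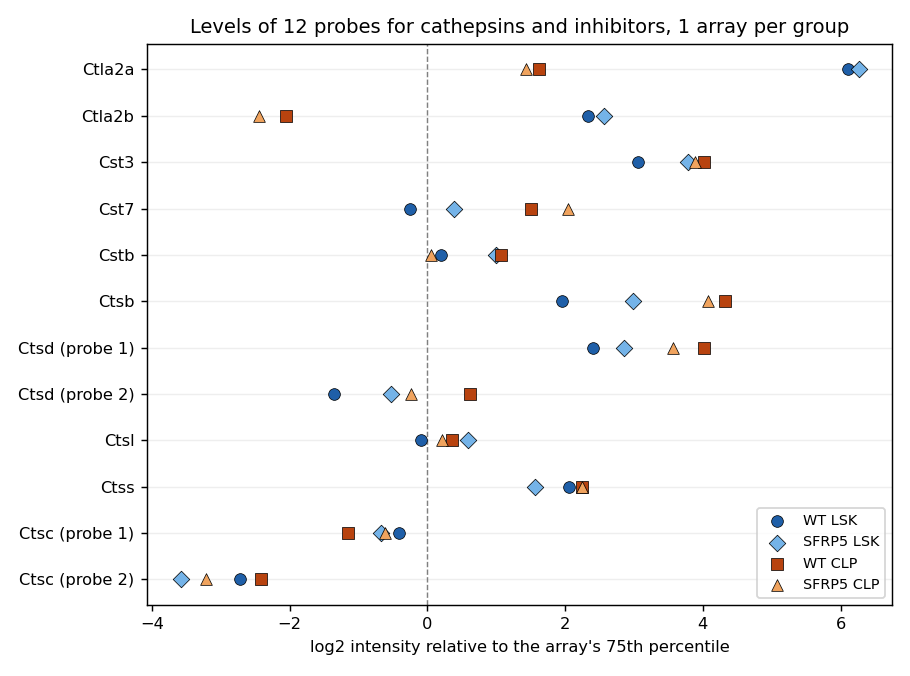
Levels of the 12 member probes (rows) on the 4 arrays, as log2 intensity relative to each array's 75th percentile (dashed line at 0); each point is 1 array. The LSK points of Ctla2a (6.10 and 6.26) and Ctla2b (2.33 and 2.56) stand apart from the CLP points (1.62 and 1.43, and -2.06 and -2.44), whereas the 4 points of Ctss lie between 1.56 and 2.25.

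Ctla2b, the neighbouring copy in the same band, read 2.33 (WT) and 2.56 (SFRP5) in LSK and -2.06 (WT) and -2.44 (SFRP5) in CLP. The LSK and CLP arrays again did not overlap. Its level was lower in CLP by 21-fold in WT (-4.39) and by 32.0-fold in SFRP5 (-5.00). The genotype difference was 0.23 in LSK and -0.38 in CLP, on either side of 0, with spot SDs of 0.095 and 0.17. Correcting the background by normexp in place of the scanner software's subtraction brought the sort differences of Ctla2b nearer to 0, to -3.18 in WT and -3.74 in SFRP5.

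Among 8200 named genes measured on all 4 arrays, those whose level, centred over the arrays, differed least from that of Ctla2a included Ctla2b, with a root mean square difference of 0.08, Pear1 (0.15), Adgrl4 (0.30) and Epb41l3 (0.33). Pear1, a membrane receptor known from platelets, read 1.29 (WT) and 1.85 (SFRP5) in LSK and -3.08 (WT) and -3.16 (SFRP5) in CLP. Both of its LSK arrays were above both CLP arrays. Its CLP levels lay below -3, where replicate spots had a median SD of 0.38 (WT CLP) and 0.35 (SFRP5 CLP). The likeness rests on 4 arrays and is mostly that of any gene high in both LSK arrays and low in both CLP arrays.

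The 2 genes sit among placental cathepsins. In the chromosomal order of the RefSeq table, a run of 13 protein-coding genes on the array goes from Ctsll3 through 4930486L24Rik, Ctla2b, Tpbpb, Ctla2a and Tpbpa to Ctsj, Ctsq, Ctsr, Cts6, Cts8, Cts7 and Ctsm. Of the 8 cathepsin genes in that run, 7 were well above background on no array, and Ctsm was above it on WT LSK alone, at -4.33. Of all probes, 65.3% to 70.1% were well above background on an array, and the share that was so on none was not counted. Tpbpa, a trophoblast gene next to Ctla2a, was above background on no array. Apart from the Ctla2 genes, 4930486L24Rik was the only gene of the run above background on all 4 arrays, at -1.74 (WT) and -0.50 (SFRP5) in LSK and -3.56 (WT) and -1.31 (SFRP5) in CLP. In this run the inhibitor-like genes thus gave signal beside proteases that, apart from Ctsm on WT LSK, did not pass the flag.

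**Figure D2:**
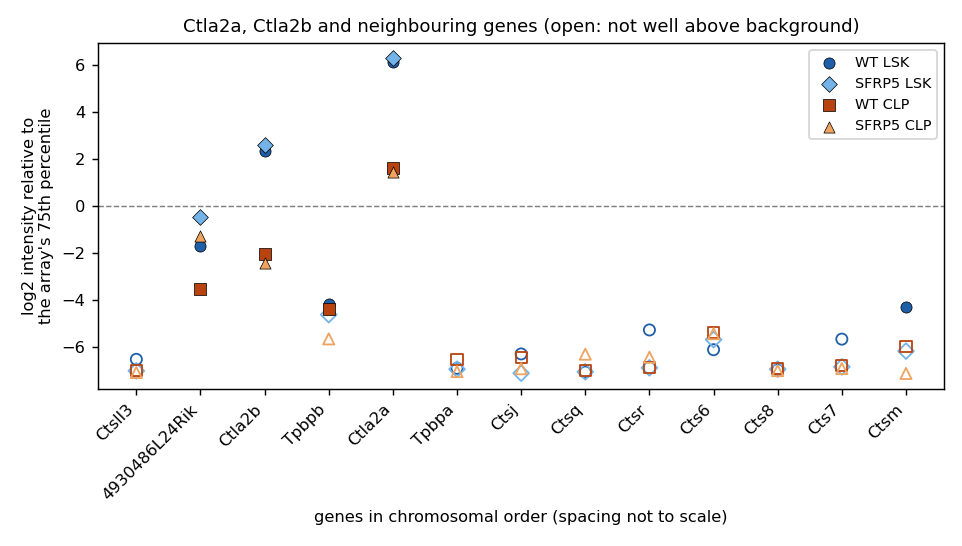
Level (log2 intensity relative to the array's 75th percentile) of 13 neighbouring genes in chromosomal order; each point is 1 array, and open points were not well above background. Ctla2a and Ctla2b stand above a row of cathepsin genes at or near the lowest signals, of which only Ctsm on WT LSK (-4.33) is filled.

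Cst7 encodes cystatin F, an inhibitor of immune cells that acts on cathepsin C in granules. Its level was -0.25 (WT) and 0.38 (SFRP5) in LSK and 1.5 (WT) and 2.04 (SFRP5) in CLP, so both CLP arrays were above both LSK arrays. It was higher in CLP by 3.35-fold in WT (1.74) and 3.16-fold in SFRP5 (1.66), and these 2 differences were within 0.08 of each other. In both sorts it was higher on the SFRP5 array, by 0.63 in LSK and 0.55 in CLP, short of 2-fold. Cst3, the gene of the secreted inhibitor cystatin C, read 3.06 (WT) and 3.78 (SFRP5) in LSK and 4.01 (WT) and 3.89 (SFRP5) in CLP. WT LSK was the low array, and the other 3 lay within 0.23 of each other. Cst3 was higher in CLP by 0.95 in WT and differed by 0.10 in SFRP5, where 4 other scalings gave the opposite sign.

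Cstb encodes stefin B, the cytosolic inhibitor of cathepsins B and L. Its level was 0.20 (WT) and 0.99 (SFRP5) in LSK and 1.07 (WT) and 0.05 (SFRP5) in CLP. The high arrays were those of SFRP5 LSK and WT CLP, so neither sort nor genotype separated the values. The genotype difference was 0.79 in LSK and -1.02 in CLP, where it was lower by 2.03-fold. The sort difference was 0.86 in WT and -0.95 in SFRP5, and the latter passed 2-fold in 3 of the 8 alternatives, at -1.13 at the farthest. The CLP genotype difference was nearer to 0 than 2-fold, at -0.87 at the nearest, in 3 of the 8 alternatives.

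Ctsb, the gene of the abundant lysosomal cysteine protease cathepsin B, read 1.96 (WT) and 2.98 (SFRP5) in LSK and 4.32 (WT) and 4.07 (SFRP5) in CLP. Both CLP arrays were above both LSK arrays. It was higher in CLP by 5.17-fold in WT (2.37) and 2.13-fold in SFRP5 (1.09). In LSK it was higher on the SFRP5 array by 2.03-fold (1.02), and in CLP it differed by -0.25. The LSK genotype difference and the sort difference in SFRP5 each fell short of 2-fold under 4 other scalings, at 0.85 and 0.87 at the lowest.

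Ctsd encodes cathepsin D, the aspartic protease, which cystatins do not inhibit. Its brighter probe read 2.41 (WT) and 2.86 (SFRP5) in LSK and 4.02 (WT) and 3.57 (SFRP5) in CLP, and a dimmer one read -1.36, -0.53, 0.62 and -0.24 in the same order. On both probes WT LSK was the lowest array and WT CLP the highest. In WT the brighter probe was 3.05-fold higher in CLP (1.61) and the dimmer 3.95-fold (1.98). In SFRP5 the differences were 0.71 and 0.29. Genotype differences were 0.45 and 0.83 in LSK and -0.44 and -0.86 in CLP, the same signs on both probes.

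Ctsl, the gene of cathepsin L, the protease that the Ctla2 proteins resemble in its propeptide, had a narrow range: -0.09 (WT) and 0.59 (SFRP5) in LSK and 0.36 (WT) and 0.21 (SFRP5) in CLP. Sorts and genotypes overlapped, and no difference reached 2-fold. The highest was 0.69 between genotypes in LSK, and the sort differences were 0.45 in WT and -0.39 in SFRP5.

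Ctss encodes cathepsin S, which trims the invariant chain of MHC class II in antigen-presenting cells. It read 2.05 (WT) and 1.56 (SFRP5) in LSK and 2.24 (WT) and 2.25 (SFRP5) in CLP. SFRP5 LSK was the low array, and the differences were -0.48 between genotypes in LSK and 0.69 between sorts in SFRP5. In CLP the genotypes differed by 0.02. Ctsc encodes cathepsin C, the activator of granule serine proteases. Its brighter probe read -0.41 (WT) and -0.67 (SFRP5) in LSK and -1.16 (WT) and -0.61 (SFRP5) in CLP, and its sort difference was -0.75 in WT and 0.06 in SFRP5. A dimmer probe, whose Ensembl transcript was not matched in the RefSeq table, read -2.72, -3.58, -2.41 and -3.22. The 2 Ctsc probes disagreed in the sign of the WT sort difference (-0.75 and 0.31) and of the CLP genotype difference (0.56 and -0.81), and the dimmer probe's spot SD of a difference reached 0.57.

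The upstream 250 bases of Ctsd and Ctsl are shown for the letters CACGTG in capitals, the E-box core that regulators of lysosomal genes such as TFEB can bind.
Ctsd (chr7:142387828-142388077, minus strand): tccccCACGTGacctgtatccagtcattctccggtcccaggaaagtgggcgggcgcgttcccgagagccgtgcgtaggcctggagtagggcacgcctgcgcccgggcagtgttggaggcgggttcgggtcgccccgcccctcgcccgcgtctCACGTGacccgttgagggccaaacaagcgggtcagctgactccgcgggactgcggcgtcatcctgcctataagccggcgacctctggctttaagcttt
Ctsl (chr13:64370521-64370770, minus strand): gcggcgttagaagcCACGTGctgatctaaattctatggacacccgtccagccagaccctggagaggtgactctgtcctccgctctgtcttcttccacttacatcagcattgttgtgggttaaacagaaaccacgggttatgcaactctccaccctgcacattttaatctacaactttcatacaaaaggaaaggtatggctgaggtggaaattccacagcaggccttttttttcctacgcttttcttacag
CACGTG, which reads the same on both strands, occurred at 245 and 98 bases before the start in Ctsd and at 236 bases before it in Ctsl. Of the 8 member genes in the promoter table, these 2 held it, and 6.0% of all 32851 windows of that length did. Ctsb and Cstb have no entry in the table. A match of 6 letters is a description and no site. Tfeb itself differed between genotypes by -0.13 in LSK and -0.49 in CLP.

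Counted together, 1 of the 10 members (Ctsb) was at least 2-fold higher on the SFRP5 array in LSK and 0 were lower, where 13.7% of 16125 measured genes passed 2-fold, 6.57% higher and 7.17% lower. The median difference of the members was 0.54 against 0.02 for all genes. All 5 inhibitors lay above 0 in LSK, from 0.15 to 0.79, though Ctla2a at its low end changed sign with the scaling, and 3 of the 5 proteases did, from -0.48 to 1.02. In CLP 1 of 10 members (Cstb) was at least 2-fold lower and 0 were higher, where 8.56% of 15942 genes passed 2-fold, 4.3% lower and 4.25% higher. The members' median there was -0.17 against -0.04, and 3 of 10 lay above 0. With 1 member past 2-fold in either sort, the members' share was close to the background. Members were chosen with these values known, so the medians describe the list and do not set it apart from other genes.

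Between sorts in WT, 3 members were at least 2-fold higher in CLP (Ctsb, Ctsd and Cst7) and 2 lower (Ctla2a and Ctla2b), where 32.1% of 16016 genes passed 2-fold, 17.8% higher and 14.3% lower. In SFRP5, 2 were higher (Ctsb and Cst7) and the same 2 lower, where 22.5% of 15713 genes passed 2-fold, 11.5% higher and 11.0% lower. The choice of the Ctla2 genes used this contrast, so nothing is read from the counts. The WT and SFRP5 sort differences share no array with each other, but each shares its arrays with the genotype comparisons. Leaving the Ctla2 genes aside, the 8 other members ran from -0.75 (Ctsc) to 2.37 (Ctsb) in WT and from -0.95 (Cstb) to 1.66 (Cst7) in SFRP5.

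**Figure D3:**
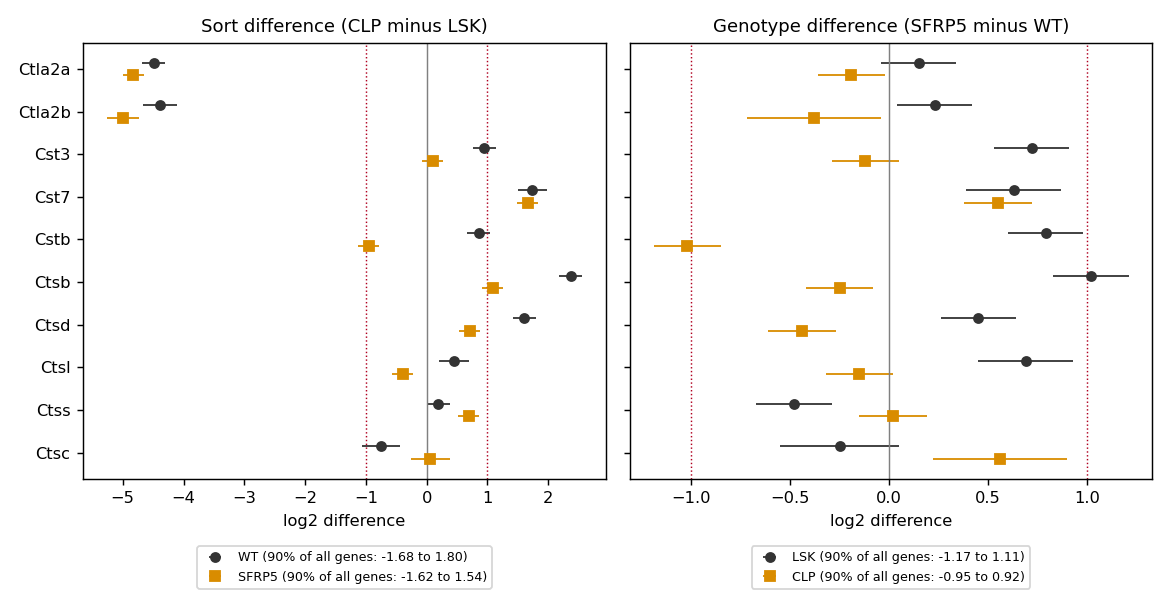
Log2 differences of the 10 members (brightest probe of each gene) between sorts (left) and between genotypes (right), 1 array against 1; bars are 2 SDs of replicate spots either side and leave out the spread between mice, and dotted lines mark 2-fold. Ctla2a and Ctla2b lie between -5.00 and -4.39 on the left, and on the right Cstb lies at 0.79 in LSK and -1.02 in CLP.

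Ratios between a protease and an inhibitor within an array do not depend on a single scaling factor per array, so their changes were followed for 5 pairs in which the inhibitor is known to act on the protease or on close relatives of it. From LSK to CLP the ratio of Ctsl to Ctla2a was 30.7-fold higher in WT (4.94 on the log2 scale) and 21.7-fold higher in SFRP5 (4.44), and that of Ctsl to Ctla2b 28.7-fold and 24.5-fold. The inhibitor genes made up most of these changes, at -4.49 and -4.83 for Ctla2a, while Ctsl itself differed by 0.45 and -0.39. Ctla2a and Ctla2b were chosen for this sort contrast. The size of their ratio changes follows from that choice, and nothing further is read from it. The ratio of Ctsb to Cstb was also higher in CLP, by 2.84-fold in WT and 4.11-fold in SFRP5. That of Ctsc to Cst7 moved the other way and was lower by 5.64-fold in WT (-2.49) and 3.03-fold in SFRP5 (-1.60). Ctss over Cst3 was lower in CLP by 1.70-fold in WT and higher by 1.5-fold in SFRP5. Between genotypes the one ratio past 2-fold was Ctss over Cst3 in LSK, lower on the SFRP5 array by 2.31-fold (-1.21). These are ratios of RNA signals and not of protein or activity.

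Outside the members, the wider list of cathepsin proteases had 14 of 15 genes measured, and Ctsk, the neighbour of Ctss on chromosome 3, was well above background on no array. From LSK to CLP, 6 of 14 were at least 2-fold higher and 2 lower in WT, and 5 were higher and 2 lower in SFRP5, with medians of 0.49 and 0.50 against 0.02 for all genes. Of all genes, 17.8% were higher and 14.3% lower in WT, and 11.5% and 11.0% in SFRP5. Ctse, the gene of the aspartic protease cathepsin E, read -3.03 (WT) and -2.68 (SFRP5) in LSK and 3.07 (WT) and 2.49 (SFRP5) in CLP, and was higher in CLP by 6.10 and 5.17. Ctsg, a serine protease of neutrophil granules, was higher by 4.6 and 3.99, and the aminopeptidase gene Ctsh by 3.57 and 1.80. Ctsf, a cysteine protease gene, ran the other way, at -1.04 in WT and -2.82 in SFRP5, and it was higher on the SFRP5 array in LSK by 1.21. Ctso was lower in CLP by -1.04 in WT, and Ctsw, known from NK and cytotoxic T cells, by -1.0 in SFRP5. Between genotypes 2 of 14 proteases (Ctsf and Ctsb) were 2-fold higher in LSK and none in CLP, where the ends were Lgmn (0.95) and Ctsc (0.56) above and Ctsh (-0.85) and Ctse (-0.58) below. The low end in LSK was Ctso (-0.72), followed by Ctss (-0.48). Of all genes, 6.57% were at least 2-fold higher on the SFRP5 array in LSK and 4.25% in CLP.

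Of the serpins that block cathepsins, the pair Serpina3g and Serpina3f were lower in CLP in both genotypes. Of 6 measured in WT, 3 were at least 2-fold lower in CLP and 0 higher, and of 5 in SFRP5, 2 were lower and 0 higher, with list medians of -0.86 and -0.16. Of all genes, 14.3% were lower and 17.8% higher in WT, and 11.0% and 11.5% in SFRP5. The other serpin lower in WT, Serpinb9 (-1.23), was below the flag on SFRP5 CLP and so outside the SFRP5 count and median. It was at least 3.93-fold lower there than in SFRP5 LSK. Serpina3g, an intracellular serpin that blocks cysteine cathepsins, read 1.26 (WT) and 2.26 (SFRP5) in LSK and -1.88 (WT) and -2.17 (SFRP5) in CLP, differences of -3.15 and -4.43 between sorts. Its close copy Serpina3f differed by -2.97 and -3.87, and probe sharing between the 2 was not tested. In LSK, Serpina3g was 1.0 higher on the SFRP5 array and Serpinb6b lower by -1.02. At the other end between sorts stood Serpinb1a in WT (0.34) and Serpinb6b in SFRP5 (0.50). Of all probes, 65.3% to 70.1% were well above background on an array. Of 19 cystatin and stefin genes on the array, 11 were above background on no array and 4 on all 4. Among those measured on both arrays, 4 in WT and 6 in SFRP5, Cst7 was the only one past 2-fold between sorts in either genotype. Some were detected on only 1 array of a sort comparison, all at low signal. Cst6 was at least 3.20-fold lower in WT CLP, and Cst13 at least 2.27-fold higher in SFRP5 CLP. Both are set against the dimmest detected probe of the array that missed the gene. Stfa2 was at least 2.62-fold lower in WT CLP, set against its own reading there, which missed the flag. In SFRP5 both arrays detected Stfa2, and it differed by -0.38. Csta3, a stefin with near-identical copies, differed by -0.71 in WT and 0.45 in SFRP5.

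**Figure D4:**
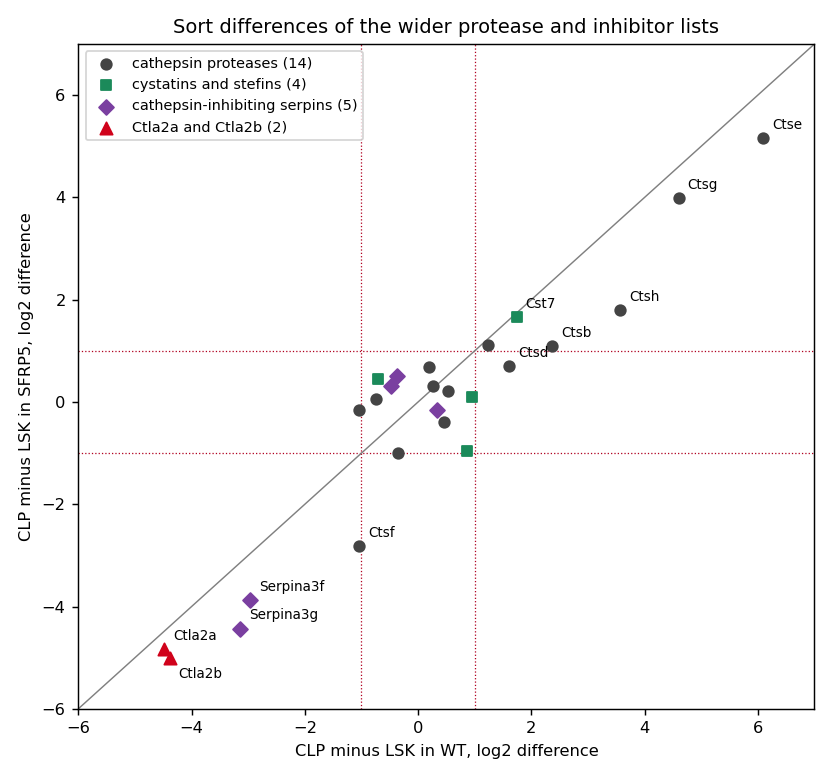
CLP minus LSK log2 differences in WT (x axis) and SFRP5 (y axis) for cathepsin proteases, cystatins and stefins, and cathepsin-inhibiting serpins measured in both, with Ctla2a and Ctla2b; each point is 1 gene, dotted lines mark 2-fold and the diagonal equal differences. Ctla2a, Ctla2b, Serpina3g and Serpina3f lie at the lower left, and Ctse (6.10 and 5.17) and Ctsg (4.6 and 3.99) at the upper right.

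Genes of the lysosome at large were counted the same way, beside 32.1% (WT) and 22.5% (SFRP5) of all genes past 2-fold between sorts and 13.7% (LSK) and 8.56% (CLP) between genotypes. Of 20 lysosomal hydrolases, 1 was at least 2-fold higher and 0 lower in CLP in WT, and 2 were higher and 4 lower in SFRP5. Neu1, a sialidase that forms a complex with cathepsin A, was the highest in both, at 2.42 and 1.75, and the lowest were Lipa (-0.92) and Asah1 (-0.48) in WT and Manba (-1.42) and Glb1 (-1.41) in SFRP5. Between genotypes in LSK 3 were higher and 0 lower, led by Naglu (2.39) and Manba (1.37), and in CLP 1 was higher (Lipa, 1.11) and 1 lower (Glb1, -1.30). Of 18 sorting and membrane genes, 4 were higher and 1 lower in CLP in WT, and 2 higher and 2 lower in SFRP5. Cd63, a tetraspanin of lysosomes and granules, was higher by 1.75 and 1.62, and the proton pump subunit gene Atp6v0d1 by 1.65 and 1.12. The channel gene Mcoln1 was lower by -1.03 and -1.09, and Laptm5 by -1.95 in SFRP5. In LSK 1 of the 18 was higher on the SFRP5 array (Laptm5, 1.04), and in CLP 0 passed 2-fold in either direction.

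Markers of some cell types moved with the same sorts. Of all genes, 17.8% (WT) and 11.5% (SFRP5) were at least 2-fold higher in CLP, and 14.3% and 11.0% lower. Of 10 neutrophil granule genes, Ctsg among them, 8 of 9 measured were at least 2-fold higher in CLP in WT and 7 of 10 in SFRP5, and their summed linear level, in units of the 75th percentile, was 33.7 (WT) and 59.7 (SFRP5) in LSK and 281 (WT) and 311 (SFRP5) in CLP. All 8 erythroid genes measured in either genotype were higher in CLP, and the list of 9 summed to 37.3 and 37.4 in LSK and 630 and 372 in CLP. Of 10 B lineage genes, the 9 measured were all at least 2-fold higher in CLP in both genotypes. Their medians were 3.29 in WT and 3.85 in SFRP5. The B lineage list summed to 6.51 (WT) and 9.64 (SFRP5) in LSK and 93.1 (WT) and 113 (SFRP5) in CLP. Of 8 basophil and mast cell genes, 3 of 4 measured were higher and 1 lower in WT, and the list summed to 2.62 and 2.66 in LSK and 53.0 and 36.8 in CLP. The NK and cytotoxic T cell genes did not move as a class: 1 of 7 measured (Nkg7, 1.45) was higher in WT, with a median of -0.58, and 3 of 8 were higher and 1 lower in SFRP5, so their sums (19.5 and 20.3 in LSK, 40.0 and 43.5 in CLP) mostly follow Nkg7, the brightest of them. Monocyte and macrophage genes went both ways, with 2 of 8 measured higher and 1 lower in WT and 2 of 10 higher and 3 lower in SFRP5. Their sum, between 27.4 and 30.8, is mostly that of Csf1r (-0.09 between sorts in WT), while Mpeg1 was higher by 3.01. Dendritic cell genes did so too, with 3 of 9 higher and 2 lower in WT and 4 of 10 higher and 2 lower in SFRP5, and Siglech carries most of their sum of 42.7 to 51.6. Genes of these lists named here were chosen after their values were seen. The 9 stem cell genes summed to 67.6 (WT) and 68.4 (SFRP5) in LSK and 5.54 (WT) and 6.65 (SFRP5) in CLP, on the same side as the Ctla2 genes. Between genotypes in LSK, 5 of 9 neutrophil granule genes measured were at least 2-fold higher on the SFRP5 array and 0 lower, with a median of 1.16. Of 9 B lineage genes measured there, 2 were higher and 3 lower, beside 6.57% and 7.17% of all genes. The part of all these cell types in the sort and genotype differences of the members, Ctse and Ctsg was not tested. In bulk RNA, fewer cells of a type and less RNA per cell cannot be told apart.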

How the data were processed

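RNA of 4 samples, 1 per combination of genotype (WT, SFRP5) and sort (LSK, CLP), was amplified and hybridised to 1-colour Agilent arrays, per the labels' protocols. The deposited scanner files hold a background-subtracted intensity per spot made with Agilent's Feature Extraction software, in version 10.10.1.1 per the file headers and 10.10 per the submitters' processing notes, with probes annotated on mm9 and all arrays on 1 slide. The authors' deposited signal table holds the same intensity times 1 factor per array; the sources used here do not say how it was set.

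Here the intensity was put on the log2 scale and each array's 75th percentile (276.5 and 277.5 for WT and SFRP5 LSK, 227.2 and 290.9 for WT and SFRP5 CLP) subtracted, over 59305 spots outside the controls. Spots flagged as outliers were left out (128 to 160 per array), and none was saturated. Of the probes, 65.3% to 70.1% were well above background on an array. Of 33325 named probes, 30994 were matched by Entrez ID in the RefSeq table (GRCm38.p6), which changed 3525 symbols; the table was used for names, gene order and upstream sequences and for no position of a probe. A gene was represented by its brightest probe on average. A gene was measured when well above background on both arrays of a comparison, and was counted at 2-fold. The number of arrays limits the precision.

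The members and the gene lists were chosen with earlier results of these data known. The text gives every probe of the members, all 4 sort markers, the 2 highest and 2 lowest genes per list and comparison, list genes past 4-fold, and the 5 genes most like Ctla2a, of which 1 is not reported here; genes of the Ctla2 neighbourhood, Tfeb and the 5 protease and inhibitor pairs were added after the values were seen. The alternatives were quantile and cyclic loess scaling, a percentile over detected probes, normexp (limma 3.58.1 in R 4.3.3, offset 50), the authors' table, averaging over a gene's probes, and 2 other filters. Normexp was planned on mean spot signals and ran on median signals, which the files hold. The counting was checked on simulated data.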

Additional observations from a re-analysis of the deposited data

Results flagged for a closer look

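For 4 members the arrays of the 2 sorts moved in opposite directions between genotypes, by more than 2 spot SDs on either side. The difference between the genotype differences (CLP minus LSK) was -1.81 for Cstb (0.79 in LSK and -1.02 in CLP), -1.28 for Ctsb (1.02 and -0.25), -0.89 for Ctsd (0.45 and -0.44) and -0.61 for Ctla2b (0.23 and -0.38). With 1 array per group these differences between sorts were not tested, and the spot SD leaves out the spread between mice. The signs held under all 8 alternatives, but Ctla2b in both sorts and Ctsb in CLP came within 2 spot SDs of 0 under some of them. With quantile scaling Ctla2b in LSK was at 0.08 beside a spot SD of 0.095, and Ctsb in CLP at -0.10 beside 0.085. In the authors' table Ctla2b in CLP was at -0.28 beside a spot SD of 0.17.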

How the results depend on the processing

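Of 320 member differences under 8 alternatives, 0 of those past 2-fold changed sign, 13 of the others did, and 15 changed their side of 2-fold. Ctla2a stayed between -4.97 and -4.33 for CLP minus LSK in WT and between -5.03 and -4.72 in SFRP5. The count of members past 2-fold between genotypes in LSK was 0 in place of 1 with quantile scaling, cyclic loess, the percentile over detected probes and the authors' table. In CLP it was 0 in place of 1 with quantile scaling, normexp and the authors' table. Between sorts in SFRP5, cyclic loess, the percentile over detected probes and the authors' table gave 1 member higher and 3 lower, in place of 2 and 2, and quantile scaling 1 and 2. Over all genes, normexp gave 742 genes past 2-fold between genotypes in LSK (2215 as reported), 323 in CLP (1364), 3054 between sorts in WT (5136) and 2085 in SFRP5 (3535). No filter on dim probes gave 4957, 3721, 8125 and 6276. Normexp was counted over the same genes, with the same flag and probes, whereas dropping the filter counts more genes. The cause of the change with normexp was not tested.

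Against the 75th percentile, the authors' table moved the median of all genes by -0.13, 0.10, -0.42 and -0.18 in the same order. The share of calls that were higher between genotypes in LSK was 47.8% as reported, 59.1% with quantile scaling, 63.4% with cyclic loess, 35.6% with the percentile over detected probes, 62.8% with normexp, 33.4% in the authors' table and 35.9% without the filter. In CLP it was 49.7%, and 60.1% in the authors' table. Between sorts in WT it was 55.5%, and 39.2% with the percentile over detected probes, 66.1% with normexp and 26.6% in the authors' table; in SFRP5 it was 51.1%, and 37.6% in the authors' table. Of 160 ratio changes, an alternative chosen after seeing the data, 4 changed sign and 1 its side of 2-fold. No paired analysis was possible because the labels number no replicates and each group has 1 array, and no array can be left out of a group of 1. An additive fit of sort and genotype, which would leave 1 residual degree of freedom, was not run, since it takes the genotype difference to be equal in the 2 sorts.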
